A study of Rattus norvegicus with 8 samples.

Results

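The genes described here are antioxidant genes of the kind that the transcription factor Nrf2 switches on. They were chosen by symbol from a list of 10, namely Prdx1, Prdx5, Txn1, Txnrd1, Srxn1, Gclm, Gclc, Nqo1, Slc7a11 and Sod2. A total of 9 were found among the 32623 genes of the count tables, and Srxn1 was not analysed here. The cells kept after quality control held 1021394 UMIs (unique molecular identifiers, which mark single RNA molecules) of Prdx5, 615725 of Prdx1, 334532 of Txn1 and 313852 of Sod2. They held 26152 UMIs of Txnrd1, 15849 of Gclm, 12787 of Nqo1, 11147 of Gclc and 3745 of Slc7a11, so the last genes were measured on far fewer molecules.

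Nrf2, the product of Nfe2l2, is held in check by Keap1 and, when electrophiles or oxidants modify Keap1, binds antioxidant response elements together with small Maf proteins, at sites that Bach1 can occupy as a repressor. Its targets make and reduce thioredoxin, import cystine and build glutathione, and detoxify quinones. In injured spinal cord, infiltrating myeloid cells take up myelin and red cell debris that is rich in lipid and iron, and such cells are a known source of oxidants. Sod2 is also a well known target of NF-kappaB and is not a typical Nrf2 gene.

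Cells came from 10 mm of spinal cord of female Wistar rats aged 8 weeks, taken 7 days after surgery. A 10 g weight was let fall on the exposed T9 cord from 12.5 mm (mild), 25 mm (moderate) or 50 mm (severe), and sham rats had the laminectomy without the impact. Each of the 4 groups had 2 libraries made with droplet-based 3' chemistry, written as sham 1, sham 2 and so on, and nothing in the labels says whether a library is 1 animal or a pool, so p-values measure the spread between libraries. Quality control kept 55455 of 68658 cells, between 2336 in sham 2 and 10016 in moderate 1, and the libraries held between 31482153 and 131045446 UMIs.

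Cells were assigned to types by counting marker genes, none of which was a member of the list. Macrophages/microglia were the largest class with 25300 cells (45.6% of the kept cells), followed by neutrophils (7254), oligodendrocytes (3817), oligodendrocyte precursors (2572), fibroblasts (1544) and T cells/NK cells (1401), and 10851 cells (19.6%) stayed unassigned. Of 41 further markers of 11 types, each kept out of the gate list of its own type, 34 were highest in that type, with all libraries summed. Among them Mbp, counted for oligodendrocytes, was a gate marker of Schwann cells, and Sox10 was counted for both precursors and Schwann cells. In macrophages/microglia 2 of 4 were (not Tyrobp and Fcer1g), in precursors 2 of 4 and in erythroid cells 1 of 3. The 2 sham libraries stood apart from each other. Sham 1 held 4537 neutrophils and 637 macrophages/microglia, and all its kept cells together had a median of 2745 UMIs per cell. Sham 2 held 1 neutrophil and 2084 macrophages/microglia among only 2336 kept cells, which had a median of 9282.5 UMIs per cell. The summed level of 8 neutrophil markers in the macrophages/microglia of sham 1 was 4428 CPM (UMIs of the genes per 1000000 UMIs of the class), against 121 to 278 CPM in the other libraries, and the oligodendrocytes of sham 1 carried 4476 CPM against 2.33 to 168. The oligodendrocyte precursors of sham 1 (68 cells) carried 5369 CPM of fibroblast markers, against 46.9 to 824 CPM in the other libraries. They carried 4176 CPM of neutrophil markers, against 81.1 to 482 CPM, beside 5022 CPM of their own markers. The part of these signals in the results below was not tested. Several results that rest on sham 1 or sham 2 are given with and without them. Others, and all precursor fold changes, are given with all libraries only. Any 2 libraries shared between 5 and 40 cell barcodes, at most 0.452% of the smaller library.

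The core of the antioxidant response element, written here as TGACNNNGC, was searched on both strands of the RefSeq promoter entries of assembly GRCr8, each 250 bases before to 50 bases after a gene start. The windows are shown since the members are grouped by this factor, and they carry the letters around each match, 5' to 3' on the strand of the gene, with the match in capitals. All 10 listed genes had an entry, and 5 held a match, each read on the opposite strand and therefore printed as GC, 3 bases and GTCA. Distances are those of the first base of a match, so the Prdx5 match began 1 base before the start and ran across it. Across all genes 4038 of 33469 entries (12.1%) held the motif.
Prdx1, chr5:135383711-135383819, plus strand, match 135 bases before the start: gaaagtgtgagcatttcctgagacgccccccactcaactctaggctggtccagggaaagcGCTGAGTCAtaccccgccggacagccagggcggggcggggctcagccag
Prdx5, chr1:213532003-213532088, minus strand, match 1 base before the start: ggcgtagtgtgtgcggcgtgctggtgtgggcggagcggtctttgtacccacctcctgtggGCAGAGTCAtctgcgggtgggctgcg
Txnrd1, chr7:22755934-22756042, minus strand, match 78 bases before the start of its second entry: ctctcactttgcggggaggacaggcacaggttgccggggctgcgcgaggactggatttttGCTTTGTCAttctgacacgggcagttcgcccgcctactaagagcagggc
Gclm, chr2:213031903-213032011, plus strand, match 172 bases before the start: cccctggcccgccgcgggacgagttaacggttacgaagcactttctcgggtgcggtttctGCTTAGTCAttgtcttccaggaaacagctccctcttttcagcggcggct
Sod2, chr1:50050155-50050263, minus strand, match 35 bases before the start: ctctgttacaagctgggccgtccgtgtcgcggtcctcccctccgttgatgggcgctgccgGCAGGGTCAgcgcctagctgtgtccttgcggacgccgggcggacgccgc
The entries of Txn1, Slc7a11, Gclc, Nqo1 and Srxn1 and the first entry of Txnrd1 did not contain these letters, which says nothing of elements outside the window. A match is a description of the sequence and no measure of binding.

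The first question was which cells carried these transcripts. For every type, the UMIs of its cells were added up within a library where it reached 20 cells. Each type was compared with the macrophages/microglia of the same libraries with edgeR's quasi-likelihood test, with the library as a block and Benjamini-Hochberg adjustment over 11965 genes. A call is an adjusted p under 0.05. Out of 90 tests (9 members in 10 types), 59 gave a call. In neutrophils 4 members were higher and 2 lower (67.0% of all genes were called there), in fibroblasts 3 and 2 (57.4%), and in dendritic cells 2 and 5 (39.5%). Oligodendrocytes had 2 members higher and 6 lower (70.4%), oligodendrocyte precursors 1 and 7 (65.7%), endothelial cells 1 and 4 (43.0%) and erythroid cells 1 and 2 (21.9%). No member was higher in B cells, T cells/NK cells or Schwann cells, where 7 (34.1%), 6 (52.3%) and 4 (34.9%) were lower. With so many genes called between classes, a share of members near these percentages is not a result about the list. The median log2 fold change of the 9 members was -1.25 in oligodendrocytes and -1.87 in their precursors, beside medians of 0.05 and 0.10 over all genes. In neutrophils it was 0.44, beside -0.07. In summed cells, a lower level of a transcript per cell and a smaller share of cells that carry it cannot be told apart. CPM are shares of the UMIs of a class and not amounts per cell. Neutrophils had a median of 1816.5 UMIs per cell, against 10860 in macrophages/microglia.

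**Figure D1:**
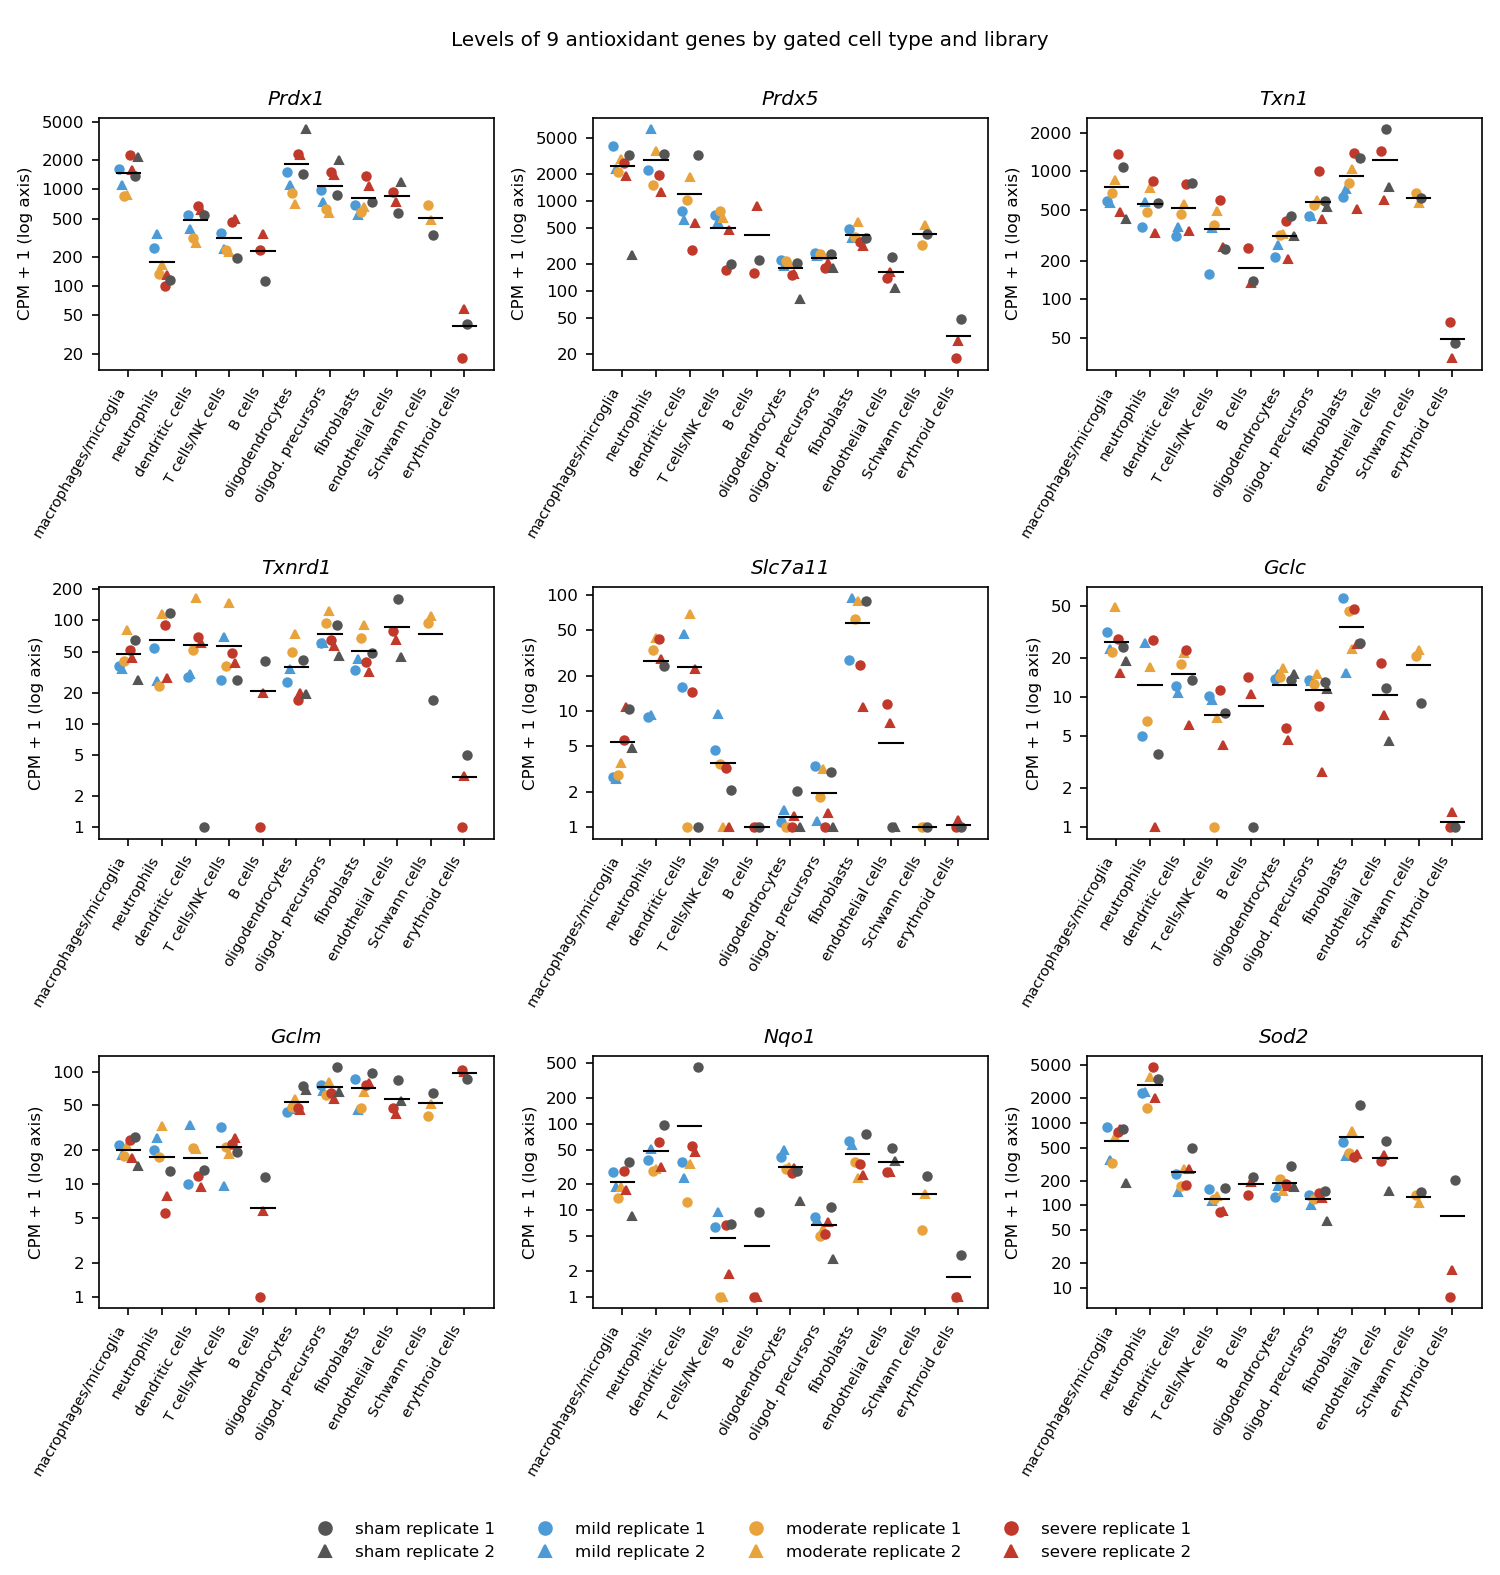
Level of each member in every gated cell type, in CPM plus 1 on a log axis. Each point is 1 library in which the type reached 20 cells, and each bar is the mean over libraries. Prdx5 is high in macrophages/microglia, neutrophils and dendritic cells with sham 2 far below the other macrophage sums, Sod2 is highest in neutrophils, Slc7a11 in fibroblasts, and Gclm lies above the macrophage level in the cells of the oligodendrocyte line, fibroblasts and endothelial cells.

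The peroxiredoxins remove peroxides with the help of thioredoxin. Prdx5, which works in mitochondria, peroxisomes and the cytosol, had its highest levels in myeloid cells. Its lowest, median and highest library in macrophages/microglia were at 250, 2437 and 3999 CPM, and in neutrophils at 1259, 2214 and 6237 CPM. Both ranges overlapped, with a log2 difference of 0.44 ± 0.32 (SE, adjusted p = 0.216, edgeR). In oligodendrocytes Prdx5 lay between 81.6 and 219 CPM and in their precursors between 177 and 263 CPM, and of the macrophage libraries only sham 2, at 250 CPM, reached into the precursor range, while none reached into that of oligodendrocytes. The fitted log2 fold changes were -3.81 ± 0.34 in oligodendrocytes (adjusted p = 3.39e-15, edgeR), -3.79 in precursors, -3.83 in endothelial cells and -2.74 in fibroblasts, that is 14.1-fold, 13.8-fold, 14.3-fold and 6.66-fold lower. Dendritic cells were intermediate, at a median of 766 CPM and a log2 fold change of -1.51, with sham 1 at 3176 CPM.

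Prdx1, the abundant cytosolic peroxiredoxin, was spread in another way. Oligodendrocytes held 704, 1474 and 4204 CPM (lowest, median and highest library) and macrophages/microglia held 860, 1473 and 2286 CPM, which overlapped widely (log2 difference 0.02, adjusted p = 0.948, edgeR). Neutrophils, with 99.7 to 347 CPM, lay below every macrophage library, with a log2 fold change of -2.64 ± 0.24 (adjusted p = 3.12e-14, edgeR). Thus neutrophils and macrophages/microglia were both rich in Prdx5 while Prdx1 was 6.23-fold lower in neutrophils. Lower Prdx1 was also called in B cells (-3.36), T cells/NK cells (-2.21), dendritic cells (-1.70), erythroid cells (-1.63), Schwann cells (-1.60), endothelial cells (-1.46), oligodendrocyte precursors (-1.05) and fibroblasts (-0.88). In erythroid cells Prdx1 lay between 17.2 and 57.7 CPM, far below the 860 CPM of the lowest macrophage library. The erythroid value of -1.63 was fitted with TMM scaling, under which the median of all genes was -0.93. The RefSeq table lists 7 pseudogenes and 1 like-named gene of Prdx1 in the rat, 1 pseudogene of Sod2 and 1 like-named gene of Txn1, so reads shared with such copies make the levels of these genes less certain.

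Txn1, thioredoxin itself, was called lower in oligodendrocytes, oligodendrocyte precursors, B cells, T cells/NK cells, dendritic cells and Schwann cells than in macrophages/microglia. Its mean levels ran from 1233 CPM in endothelial cells (4 libraries) to 47.7 CPM in erythroid cells (3 libraries). Erythroid cells (33.7 to 65.2 CPM) gave no call for Txn1 under TMM scaling. Its macrophage sums ran from 424 over 634 to 1364 CPM, those of fibroblasts from 503 over 811 to 1392 CPM and those of neutrophils from 330 over 566 to 844 CPM. These 3 types overlapped, and neither fibroblasts nor neutrophils gave a call against macrophages/microglia, whereas oligodendrocytes (207 to 445 CPM) were lower by a log2 fold change of -1.36 ± 0.18 (adjusted p = 8.49e-10, edgeR). Txnrd1, the selenoenzyme that returns thioredoxin to its reduced form, was called in neutrophils (0.96 ± 0.29, adjusted p = 0.0031, edgeR) and in oligodendrocytes (-0.62 ± 0.27, adjusted p = 0.0387), the latter kept in 7 of 15 alternatives. The neutrophil sums of Txnrd1 were 117, 113 and 88.4 CPM in sham 1, moderate 2 and severe 1 and 22.0 to 53.0 CPM in the other 4 libraries, so the higher level came from 3 libraries. Without sham 1 the difference was 0.44 (adjusted p = 0.107) and no longer a call.

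Glutathione synthesis starts with cystine, which Slc7a11 brings in as the light chain of system xc-. Fibroblasts carried 9.86, 61.9 and 93.5 CPM of Slc7a11 (lowest, median and highest library), against 1.60, 3.22 and 9.87 CPM in macrophages/microglia. The ranges met only at their ends, and the log2 fold change was 3.52 ± 0.45 (adjusted p = 8.96e-10, edgeR). Neutrophils (8.00 to 42.1 CPM, log2 fold change 2.96) and dendritic cells (0 to 67.6 CPM, 2.39) were also higher. Oligodendrocytes stood at the other end, with levels of 0 to 1.07 CPM (-3.38 ± 0.65, adjusted p = 7.51e-06, edgeR). Oligodendrocyte precursors (0 to 2.36 CPM) were called lower as well. No UMI was counted in B cells or Schwann cells, where 3 UMIs would have meant 6.30 to 39.5 and 10.9 to 23.7 CPM. In the 2 moderate libraries, which alone had 20 astrocytes, these cells held 46.2 and 39.5 CPM.

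The subunits of glutamate-cysteine ligase, the enzyme of the first step of glutathione synthesis, did not follow each other. Gclc, the catalytic subunit, was lower in 7 of the 10 types, among them neutrophils (-1.31), oligodendrocytes (-1.25) and precursors (-1.87 ± 0.27, adjusted p = 1.7e-08, edgeR), and was higher in none. Gclm, the modifier subunit that makes the enzyme more efficient, was higher in 5 types and lower in B cells. Its precursor sums were 56.6, 65.5 and 108 CPM and its macrophage sums 13.4, 18.9 and 25.1 CPM, so that every precursor library lay above every macrophage library, by a log2 fold change of 1.32 ± 0.19 (adjusted p = 2.35e-08). Oligodendrocytes (42.7 to 73.0 CPM, 1.29), fibroblasts (44.9 to 96.2 CPM, 1.69) and endothelial cells (41.3 to 83.1 CPM, 1.19) showed the same separation. The 108 CPM of the precursors was that of sham 1, where this class carried many fibroblast and neutrophil markers. Erythroid cells, mostly from severe 2 (725 of 846 cells), had 84.6, 103 and 98.3 CPM in the 3 libraries that held them. The fitted log2 fold change of Gclm in erythroid cells was 5.90 with TMM scaling but 2.34 with scaling by library size alone, and it was called under both. Under TMM the median of all genes in this comparison was -0.93.

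Nqo1, the quinone reductase that is the textbook Nrf2 target, was called higher in several other types than in macrophages/microglia as a class. It was called lower in B cells, T cells/NK cells and oligodendrocyte precursors. Macrophage sums of Nqo1 were 7.50, 17.6 and 34.7 CPM and neutrophil sums 27.5, 37.0 and 96.0 CPM, a log2 fold change of 1.51 ± 0.29 (adjusted p = 8.27e-06, edgeR) and 1.08 without sham 1. Fibroblasts (22.4 to 75.7 CPM, 0.83), oligodendrocytes (11.7 to 48.3 CPM, 0.60) and dendritic cells (11.3 to 445 CPM, 1.17) were higher as well, although their ranges overlapped with those of macrophages. In dendritic cells the 23 cells of sham 1 gave the 445 CPM, the other libraries stood at 11.3 to 53.8 CPM, and the log2 fold change of Nqo1 without sham 1 was 0.85. Precursors (1.75 to 9.98 CPM, -2.24 ± 0.29, adjusted p = 1.02e-09) and oligodendrocytes thus went in opposite directions from macrophages for this gene. The 9.98 CPM was that of sham 1. The 2 astrocyte sums, 245 and 89.4 CPM, lay above every macrophage sum but come from 36 and 25 cells.

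Sod2, the manganese superoxide dismutase of mitochondria, was higher than in macrophages/microglia in 1 of the 10 types, the neutrophils. Its neutrophil sums were 1507, 2333 and 4674 CPM and its macrophage sums 185, 724 and 879 CPM. All 7 neutrophil libraries exceeded all 8 macrophage libraries, by a log2 fold change of 2.43 ± 0.27 (adjusted p = 1.51e-11, edgeR) and 2.26 without sham 1. Sod2 was lower than in macrophages in 7 types, with log2 fold changes from -1.10 in endothelial cells to -3.16 in Schwann cells. When types were ordered by mean level, exact sign-flip tests of neighbouring types over shared libraries gave no adjusted p under 0.05 in 86 pairs. Of these pairs, 47 share too few libraries to reach an unadjusted p of 0.05. For the others the smallest possible p was at best 0.0078, which passes the adjustment only when many pairs are that low together. The missing calls are therefore no result. As a description, 23 pairs kept their order in every shared library with a mean log2 difference beyond its SD. Among them were neutrophils over fibroblasts for Sod2 (2.21 ± 0.77, 7 of 7 libraries) and fibroblasts over precursors for Prdx5 (0.79 ± 0.23, 7 of 7). For Prdx1, endothelial cells lay below fibroblasts in all 3 shared libraries (-0.49 ± 0.12), against the order of their means over all libraries. The remaining neighbours did not differ beyond their spread or changed places between libraries.

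Other genes of the same systems, taken from a list of 52 of which 50 were tested in these fits, were compared in the same way. In neutrophils 13 were higher and 18 lower, a share below the 67.0% of all genes that were called, so the counts are no result about this list. Of 7 regulators 5 were higher, among them Bach1 (log2 fold change 2.07), Maff (1.73) and Nfe2l2 (0.75). Glrx, which removes glutathione from proteins, was also higher (2.07), as were Txnip, an inhibitor of thioredoxin (3.46), and Osgin1, an oxidative stress response gene (3.30). Prdx4 of the endoplasmic reticulum (-3.19), Gsto1 (-3.02), the heme oxygenase Hmox1 (-2.81) and catalase, Cat (-1.95), were lower. In oligodendrocytes 9 of the 50 were higher and 28 lower, near the 70.4% called over all genes. Gpx1 (-4.34) and Hmox1 (-5.08) were lower there, while the glutathione transferases Gstp1 (2.67) and Mgst3 (3.35) and the malic enzyme Me1 (3.11), a source of NADPH, were higher. Fibroblasts had 17 higher and 17 lower (57.4% of all genes were called), with the extracellular superoxide dismutase Sod3 at 109 ± 46.7 CPM (SD, n = 7) against 0.79 ± 0.58 CPM in macrophages (n = 8).

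Macrophages/microglia were then divided into states by further marker genes, again without any member of the list. Homeostatic-type microglia (1986 cells, 888 of them from sham 2), Ccl4 Cd83 activated cells (4374), lipid-laden Fabp4 Spp1 cells (10951), border-type Mrc1 Cd163 cells (727), monocyte-like Fn1 Vcan cells (342) and cycling cells (2277) were compared, and 4544 cells had no state. A further state of Cxcl1-high inflammatory cells (99 cells, of which 88 led by 1 marker only) reached 20 cells in the 2 severe libraries alone and was not tested. In severe 1 and 2 it held 1457 to 1549 CPM of Sod2 and 85.2 to 92.4 CPM of Txnrd1. The monocyte-like state reached 20 cells in 5 libraries, and 231 of its 342 cells led by 1 marker only. The neutrophil marker sum in the monocyte-like state was 8674 CPM in sham 1 and 638 to 11404 CPM in the other libraries, against 62.5 to 280 CPM in the lipid-laden cells of the libraries other than sham 1. In sham 1 that sum was 7834 CPM in lipid-laden cells, 3821 in border-type cells, 3498 in cycling cells and 3297 in homeostatic-type microglia. The part of these transcripts in the results for the states was not tested.

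Against homeostatic-type microglia of the same libraries, 18 of 45 tests gave a call among 9398 genes. Lipid-laden cells had 5 members higher and 1 lower (49.3% of all genes were called), monocyte-like cells 5 higher (44.8%), border-type cells 4 higher (25.8%), cycling cells 2 higher (26.6%) and Ccl4 Cd83 activated cells 1 higher (1.66%). The median log2 fold change of the members was 1.01 in monocyte-like cells and 0.64 in lipid-laden cells, beside -0.17 and -0.05 over all genes. It was 0.35 in border-type cells, 0.31 in cycling cells and 0.17 in activated cells.

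**Figure D2:**
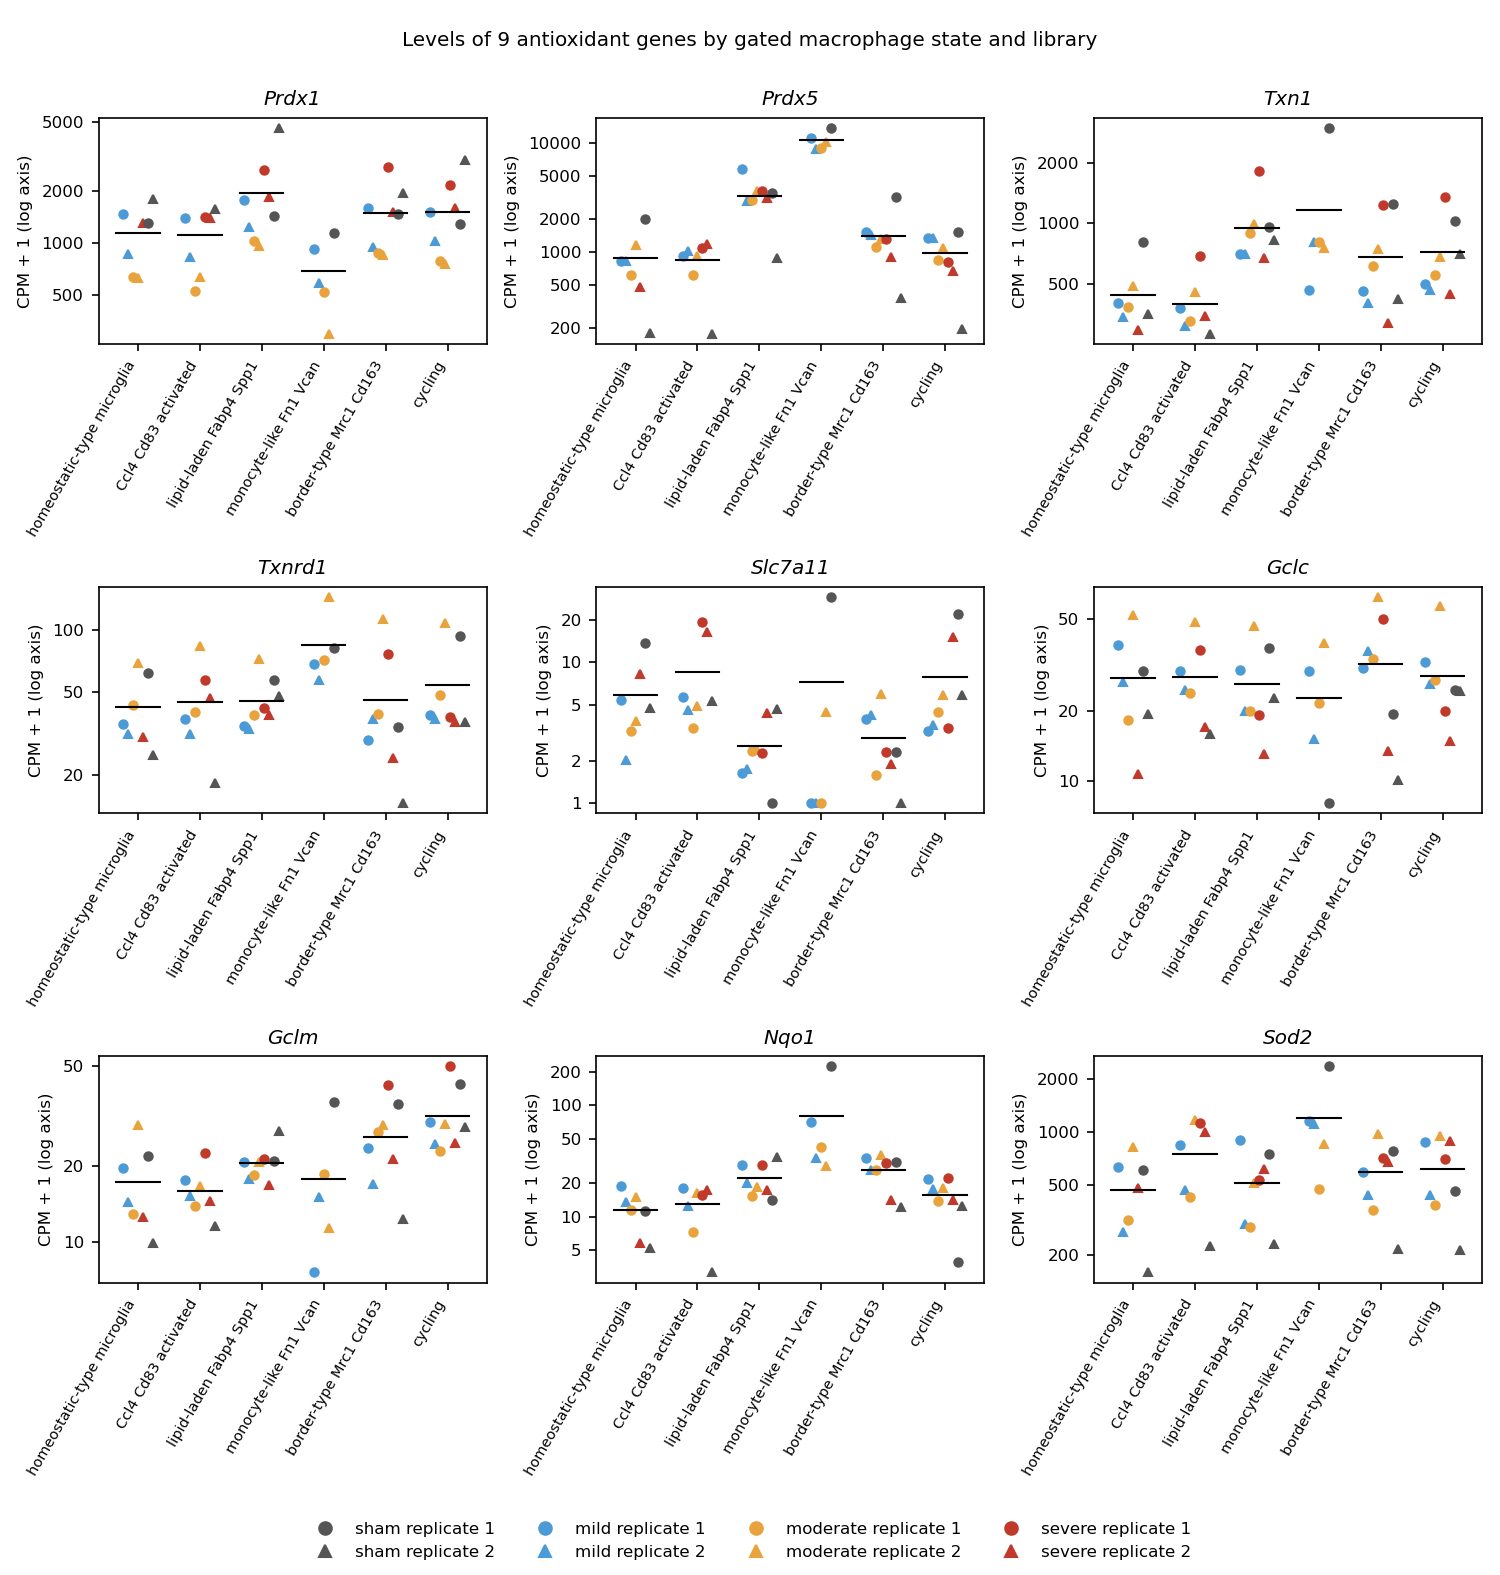
Level of each member in 6 gated macrophage states, in CPM plus 1 on a log axis, with 1 point per library of at least 20 cells and a bar at the mean. Prdx5 climbs from homeostatic-type microglia (180 to 2014 CPM) over lipid-laden cells (886 to 5710 CPM) to monocyte-like cells (8768 to 13752 CPM), while the ranges of Gclc overlap across the states.

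Prdx5 differed most between states. It stood at 13752, 11198, 8768, 8969 and 10129 CPM in the monocyte-like cells of sham 1, mild 1, mild 2, moderate 1 and moderate 2, against 180, 829 and 2014 CPM (lowest, median and highest of 7 libraries) in homeostatic-type microglia. No value of the first state overlapped with the second, and the log2 fold change was 3.59 ± 0.20 (adjusted p = 1.94e-17, edgeR), and 3.68 without sham 1. Prdx5 in the monocyte-like sums was higher than in the gated neutrophils of the same library in 5 of 5 libraries (neutrophils 3303, 2214, 6237, 1501 and 3534 CPM). In lipid-laden cells Prdx5 was at 886, 3292 and 5710 CPM, a log2 fold change of 2.26 ± 0.18 (adjusted p = 5.56e-13), and in border-type cells the change was 0.76 ± 0.17 (adjusted p = 0.000742). In activated cells (0.28, adjusted p = 0.706) and cycling cells (0.16, adjusted p = 0.547) no call was made. Sham 2 had the lowest Prdx5 level in each of these states that it held, with 180 CPM in its homeostatic-type microglia and 886 CPM in its lipid-laden cells.

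Prdx1 was called in 1 of the 5 states, the lipid-laden cells, at 0.79 ± 0.13 (adjusted p = 1.94e-06, edgeR). Its levels there were 965, 1602 and 4619 CPM, against 625, 1306 and 1805 CPM in homeostatic-type microglia, and the highest value belonged to sham 2. Without sham 2 the log2 fold change of Prdx1 was 0.63. In monocyte-like cells it was -0.32 (adjusted p = 0.0809), and -0.49 without sham 1 (adjusted p = 0.00613).

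Txn1 was higher in 4 states. Monocyte-like cells had 2971 CPM in sham 1 and 468 to 809 CPM in the other 4 libraries, against 295 to 807 CPM in homeostatic-type microglia, so the ranges overlapped outside sham 1. The log2 fold change of Txn1 was 1.26 ± 0.18 (adjusted p = 4.39e-07, edgeR) and 0.89 without sham 1, where it was still called. Lipid-laden cells held 675, 861 and 1809 CPM (1.20 ± 0.16, adjusted p = 5.87e-08), and smaller differences were called in cycling (0.46) and border-type cells (0.44). Txnrd1 was called in 1 of the 5 states, the monocyte-like cells, at 56.5 to 142 CPM against 23.9 to 67.9 CPM (1.01 ± 0.23, adjusted p = 0.000373).

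Of the glutathione genes, Gclm was higher in lipid-laden (0.64 ± 0.15), border-type (0.81 ± 0.18) and cycling cells (0.91 ± 0.15, adjusted p = 8.8e-06, edgeR). Cycling cells held 21.9, 28.1 and 48.9 CPM of Gclm and homeostatic-type microglia 8.93, 13.4 and 28.3 CPM, with an overlap at the edges. Gclc was called in no state, and its log2 fold change lay between -0.24 in monocyte-like cells and 0.27 in border-type cells. Slc7a11 was lower in lipid-laden cells, at 0 to 3.64 CPM against 1.03 to 12.7 CPM (-1.10 ± 0.36, adjusted p = 0.0109). In monocyte-like cells it had 8 UMIs in sham 1, 1 in moderate 2 and 0 in the other 3 libraries, and its fold change there ran from 0.44 with all libraries to -1.83 without sham 1, neither with a call.

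Nqo1 levels were 224 CPM in the monocyte-like cells of sham 1 and 27.7 to 69.6 CPM in the other 4 libraries, against 4.26 to 17.7 CPM in homeostatic-type microglia. The groups did not overlap, and the log2 fold change was 2.93 ± 0.41 (adjusted p = 1.62e-07, edgeR), or 2.20 without sham 1 (adjusted p = 4.72e-05). Nqo1 was higher as well in border-type (1.36 ± 0.36) and lipid-laden cells (1.30 ± 0.29). Sod2 was the single member called in Ccl4 Cd83 activated cells, a state gated on Ccl3, Ccl4, Cd83, Tnf, Egr2, Csrnp1, Nfkbid and Gadd45b. Its levels there were 225, 844 and 1169 CPM, against 158, 482 and 821 CPM in homeostatic-type microglia, an overlapping pair of ranges with a log2 fold change of 0.76 ± 0.18 within libraries (adjusted p = 0.0187, edgeR). In monocyte-like cells Sod2 had 2352 CPM in sham 1 and 474 to 1158 CPM in the others (1.41 ± 0.20, and 1.08 without sham 1).

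Of the wider list, 45 genes were tested between states. In lipid-laden cells 30 were higher and 7 lower, where 49.3% of all genes were called in either direction. All 7 genes of heme, iron and metal handling were higher, including the ferritin chains Fth1 (1.17) and Ftl1 (1.31) and Hmox1 (1.23), as were the NADPH supply genes Idh1 (1.45), Tkt (0.74) and Taldo1 (0.58). Among 12 glutathione genes 9 were higher. Mgst1, a membrane glutathione transferase, rose from 16.7 ± 4.64 CPM to 452 ± 232 CPM (SD, n = 7 homeostatic-type and 8 lipid-laden sums), a log2 fold change of 4.51 ± 0.40 (adjusted p = 5.03e-12, edgeR). Nfe2l2 itself was slightly lower (-0.22), and so were Prdx4 (-0.58) and Txnip (-0.59).

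Monocyte-like cells had 17 of the 45 higher and 8 lower, beside 44.8% of all genes called. Higher were Mgst1 (4.62), the aldo-keto reductase Akr1b8 (4.92), Me1 (4.33), Glrx (2.49), the metallothionein Mt1 (2.22) and Taldo1 of the pentose phosphate pathway (1.55). Prdx4 (-1.78) and Gpx4 (-0.47) were lower. Border-type cells had 22 higher and 1 lower (25.8% of all genes), with Akr1b8 (4.26), the biliverdin reductase Blvrb (2.30) and Mt1 (1.49) among the higher. Ccl4 Cd83 activated cells (1.66% of all genes) showed 2 genes higher, both regulators (Maff, 1.00, and Nfe2l2, 0.32), and cycling cells (26.6%) 1 higher (Mgst1, 1.05) and 3 lower.

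The question posed by the injury groups was whether macrophages/microglia of contused cord carried these transcripts at other levels than those of sham cord. No member was called in mild against sham (8.01% of 13241 genes were called), moderate against sham (3.09%), severe against sham (7.45%) or the mean of the 3 injured groups against sham (11.5%, of which 5.54% were higher). At an unadjusted p under 0.05 there was 1 member in mild, 2 in moderate, 0 in severe and 0 in the injured mean, by edgeR. Over all 13241 genes, 3983, 3077, 3732 and 4045 reached that threshold in the same order. The member counts are therefore no result about the list.

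These values rested on the sham libraries. Prdx5 in macrophages/microglia was at 3249 and 250 CPM in sham 1 and sham 2. It was at 3999 and 2227 CPM in mild 1 and 2, at 2067 and 2900 CPM in moderate 1 and 2, and at 2648 and 1879 CPM in severe 1 and 2. All 6 injured libraries lay above sham 2, and 1 of them above sham 1. The log2 fold change of Prdx5 for injured against sham was 0.93 ± 0.72 (adjusted p = 0.415, edgeR), 3.43 without sham 1 and 0.09 without sham 2. With 1 sham left out the other is a single library, which is assumed to vary like the injured groups. The p-values of such contrasts with sham hold no measure of the spread between shams and are not given.

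Nqo1 and Sod2 depended on the sham library in the same way. Nqo1 had 34.7 and 7.50 CPM in the sham libraries and 12.8 to 27.2 CPM in the injured libraries, all of them between the sham values. Its log2 fold change was 0.23 ± 0.46 with both shams, 1.43 without sham 1 and -0.43 without sham 2. Sod2 had 836 and 185 CPM in sham and 329 to 879 CPM after injury, with 0.62 ± 0.54, 1.82 and 0.00 in the same order. Scaling by library size alone shifted the injured against sham fold changes of all genes by -0.23, and with it Nqo1 stood at -0.09 and Txn1 at -0.02.

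**Figure D3:**
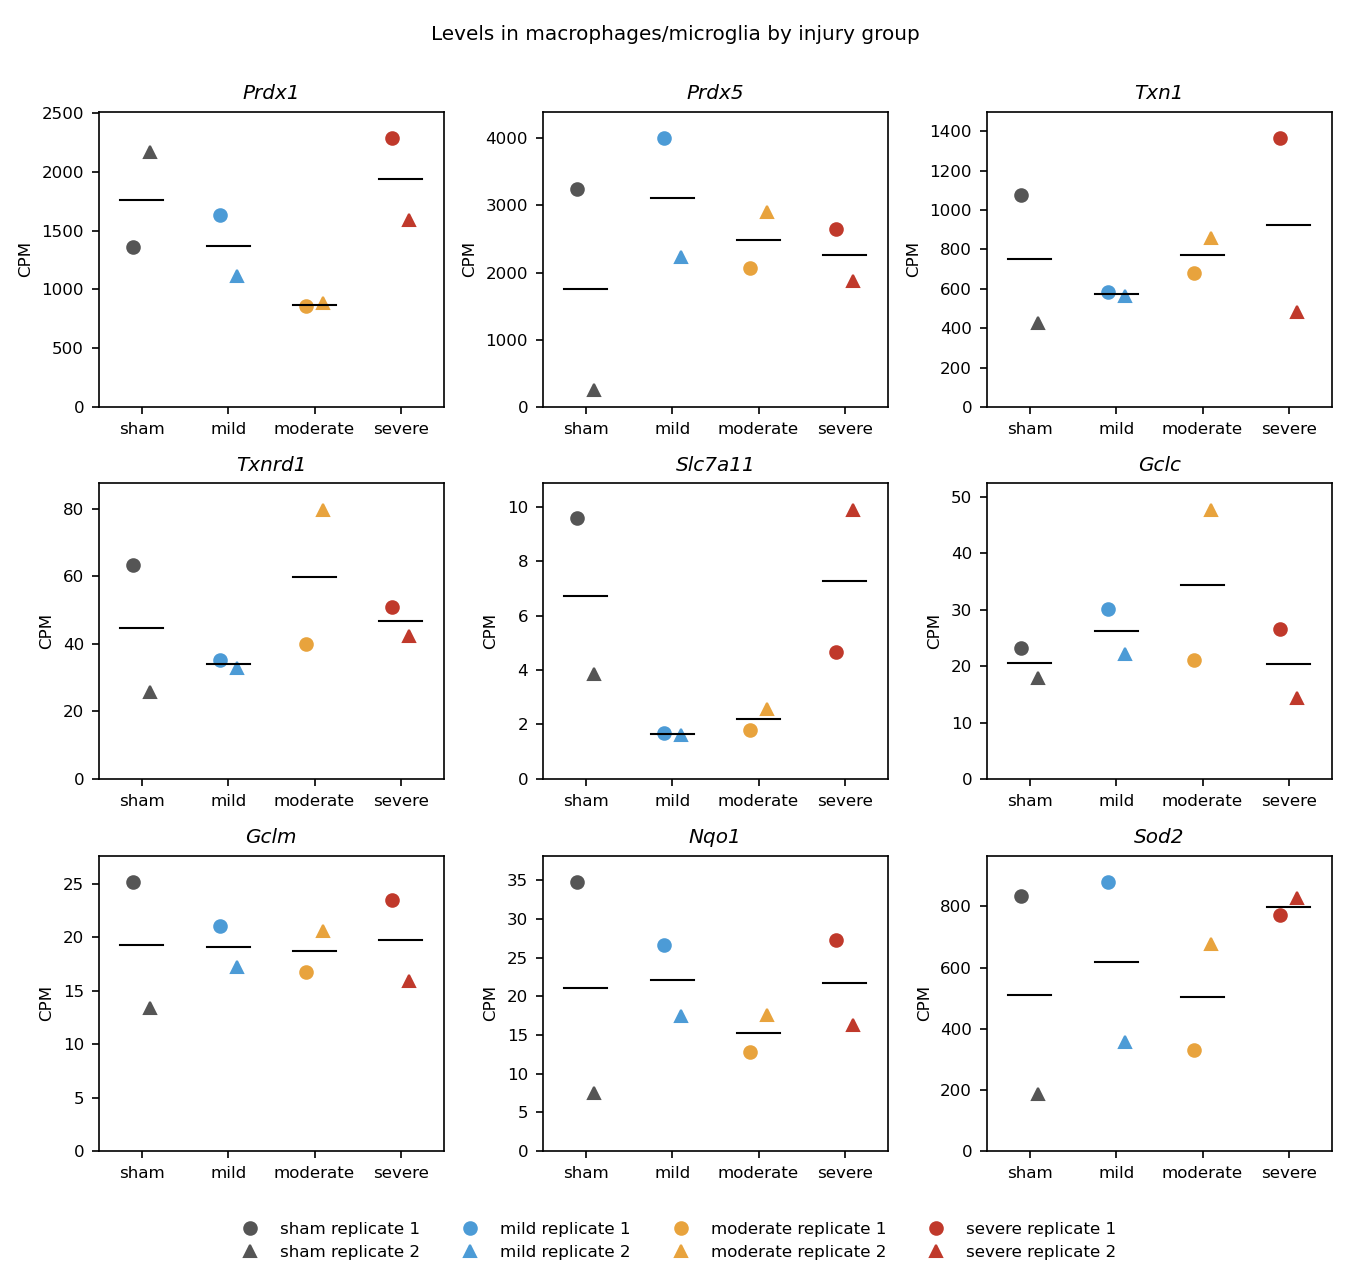
Level of each member in macrophages/microglia by injury group, in CPM, with 1 point per library and a bar at the group mean. The 2 sham points of Prdx5 (3249 and 250 CPM), Sod2 (836 and 185 CPM) and Nqo1 (34.7 and 7.50 CPM) enclose 5, 5 and 6 of the 6 injured libraries.

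**Figure D4:**
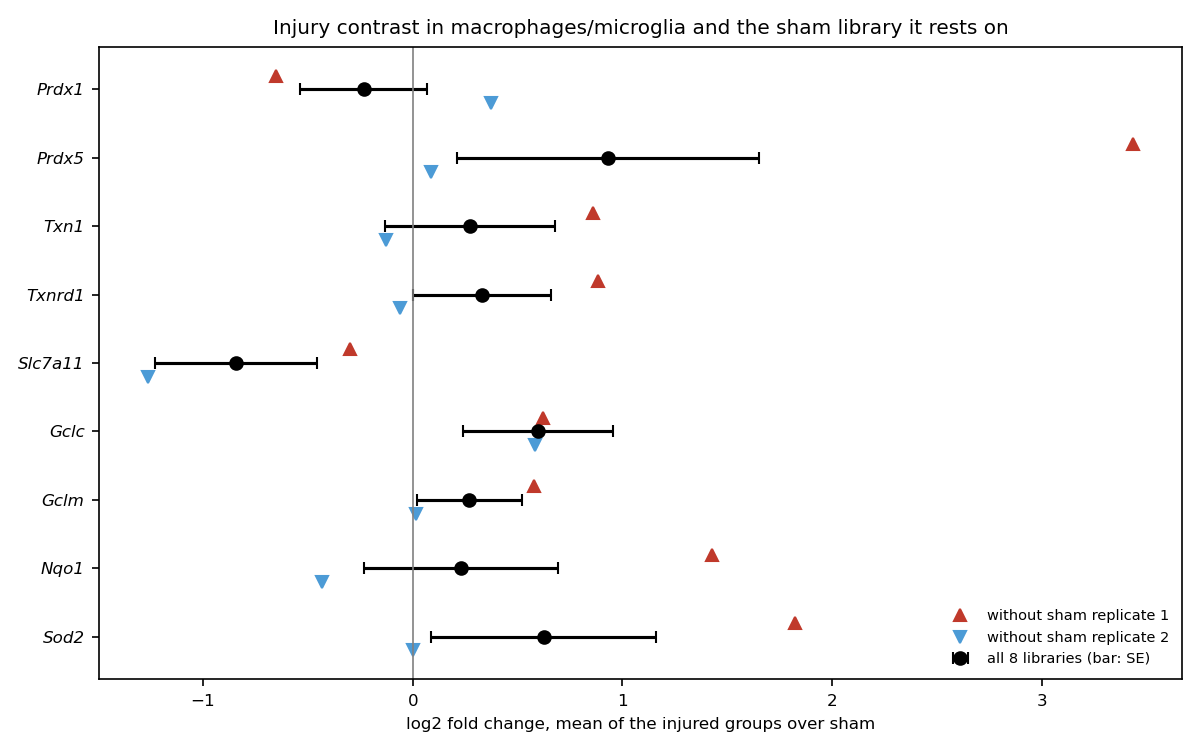
Log2 fold change of the mean of the injured groups over sham in macrophages/microglia for the 9 members, with all 8 libraries (black, bar SE), without sham 1 (red) and without sham 2 (blue). Prdx5 spans from 0.09 to 3.43, whereas Gclc stays between 0.59 and 0.62.

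Over the 45 tests of members in macrophages/microglia, 1 gave a call with all libraries. Calls with 1 sham left out are not listed here, because the contrasts with sham then rest on a single sham library. Without sham 1 the moderate against sham change of Prdx1 was -1.42, with sham 2 as the only sham. Prdx1 was highest in sham 2 (2167 CPM) and severe 1 (2286 CPM) and lowest in moderate 1 and 2 (860 and 881 CPM). Its moderate against sham change of -0.98 ± 0.38 had an adjusted p of 0.173 with both shams.

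The remaining members gave no call between groups in macrophages/microglia. Txn1 had 1076 and 424 CPM in sham, 586 and 564 in mild, 682 and 860 in moderate and 1364 and 480 in severe, so each of sham and severe had a high and a low library. Txnrd1 lay between 25.8 CPM in sham 2 and 79.5 CPM in moderate 2, and Gclc between 14.3 CPM in severe 2 and 47.6 CPM in moderate 2. Gclm had 25.1 and 13.4 CPM in sham and 15.9 to 23.5 CPM in the injured libraries, which all fell between the sham values. With 2 libraries per group, the missing calls do not show that the levels were alike.

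Slc7a11 gave the call in macrophages/microglia. It was at 9.57 and 3.87 CPM in sham 1 and 2, at 1.69 and 1.60 CPM in mild, at 1.80 and 2.58 CPM in moderate and at 4.65 and 9.87 CPM in severe. Both severe libraries lay above all mild and moderate libraries and at or near the 2 sham values. Severe against mild gave a log2 fold change of 2.54 ± 0.49 (adjusted p = 0.0413, edgeR), where 2.36% of all genes were called, and the call was kept in 6 of 15 alternatives. Mild against sham was -1.81 ± 0.50 (adjusted p = 0.0592, edgeR), and -2.23 without sham 2. Lipid-laden cells, the state where Slc7a11 was called lower, were 53.5% and 47.4% of the macrophages/microglia in mild 1 and 2. In severe 1 and 2 they were 39.3% and 28.7%. Ccl4 Cd83 activated cells were 10.7% and 16.7% in mild and 18.2% and 31.6% in severe. The part of the state makeup in the severe against mild call was not tested.

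Other genes of the system did change with injury in these cells. For the injured mean 11 of 50 were higher and 0 lower, where 5.54% of all genes were higher. Mgst1 went from 50.2 ± 33.3 CPM (SD, n = 2) to 350 ± 46.3 CPM (n = 6), a log2 fold change of 3.10 ± 0.36 (adjusted p = 0.00493, edgeR). Gpx1, the main cytosolic glutathione peroxidase, went from 1116 ± 173 to 3002 ± 245 CPM (1.63 ± 0.27, adjusted p = 0.0136). Osgin1 (3.12), the epoxide hydrolase Ephx1 (3.48), Tkt (1.49), Gsto1 (1.48), Sqstm1, which binds Keap1 (1.46), and Blvrb (1.41) were higher, and so were Cat (0.92) and glutathione synthetase, Gss (0.80). The number higher changed with the library left out. Those counts are not given, because such a fit leaves 1 group with a single library. The makeup of the class moved with injury as well. Lipid-laden cells were 5.34% and 6.05% of the macrophages/microglia in sham 1 and 2 and 28.7% to 64.1% in the 6 injured libraries, and homeostatic-type microglia were 22.9% and 42.6% in sham and 0.828% to 6.04% after injury. Within states the same contrast called 1 of 49 in lipid-laden cells (Mgst1, 2.64, with 3.12% of all genes called), 1 of 42 in border-type cells (Gpx3, 3.27, with 1.14%) and 2 of 45 in cycling cells (Mgst1, 2.42, and Osgin1, 3.35, with 1.11%). In sham 1 and 2 these states held 34 and 126 lipid-laden, 75 and 52 border-type, and 32 and 168 cycling cells. The whole class held 637 and 2084 cells there. The few calls within states therefore do not show that the levels in them were alike. The part of the state makeup in the 11 calls was not tested. Severe against mild gave 3 calls among the 50, where 2.36% of all genes were called. All 3 were higher, namely the regulators Maff (3.19) and Bach1 (2.18) and Ftl1 (2.40).

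The same contrasts in oligodendrocytes, oligodendrocyte precursors and the lipid-laden, border-type and cycling states gave 1 call in 210 tests, the number of members that passed the low-count filter times the contrasts, where 3.25% of the tests over all genes gave a call. The call was Prdx1 in oligodendrocytes for moderate against sham (2.96% of all genes called). The oligodendrocyte levels of Prdx1 were 1452 and 4204 CPM in sham, 1496 and 1109 in mild, 922 and 704 in moderate and 2343 and 2249 in severe. Both moderate libraries were below all others, with a log2 fold change of -1.97 ± 0.46 (adjusted p = 0.0487, edgeR), kept in 5 of 15 alternatives. Sham 2, the highest library, had 37 oligodendrocytes, and the fold change is given here with all libraries only.

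Some libraries had the same place in several cell classes. Among the 3 types and 3 states with all 8 libraries, Prdx1 was lowest in a moderate library in 6 of 6 and highest in sham 2 or severe 1 in 6 of 6. In oligodendrocyte precursors its levels were 878 and 2007 CPM in sham, 992 and 737 in mild, 629 and 573 in moderate and 1523 and 1416 in severe. Txnrd1 and Gclc were each highest in moderate 2 in 6 of 6 classes, and Prdx5 was lowest in sham 2 in 6 of 6, which includes cells as unlike as oligodendrocytes (81.6 CPM) and cycling macrophages (197 CPM). The 3 states are parts of the macrophages/microglia, so their cells are counted in that type too. Classes of 1 library also share the preparation of that library, so these are not independent observations. How often other genes had the same extreme library in all 6 classes was not counted.

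**Figure D5:**
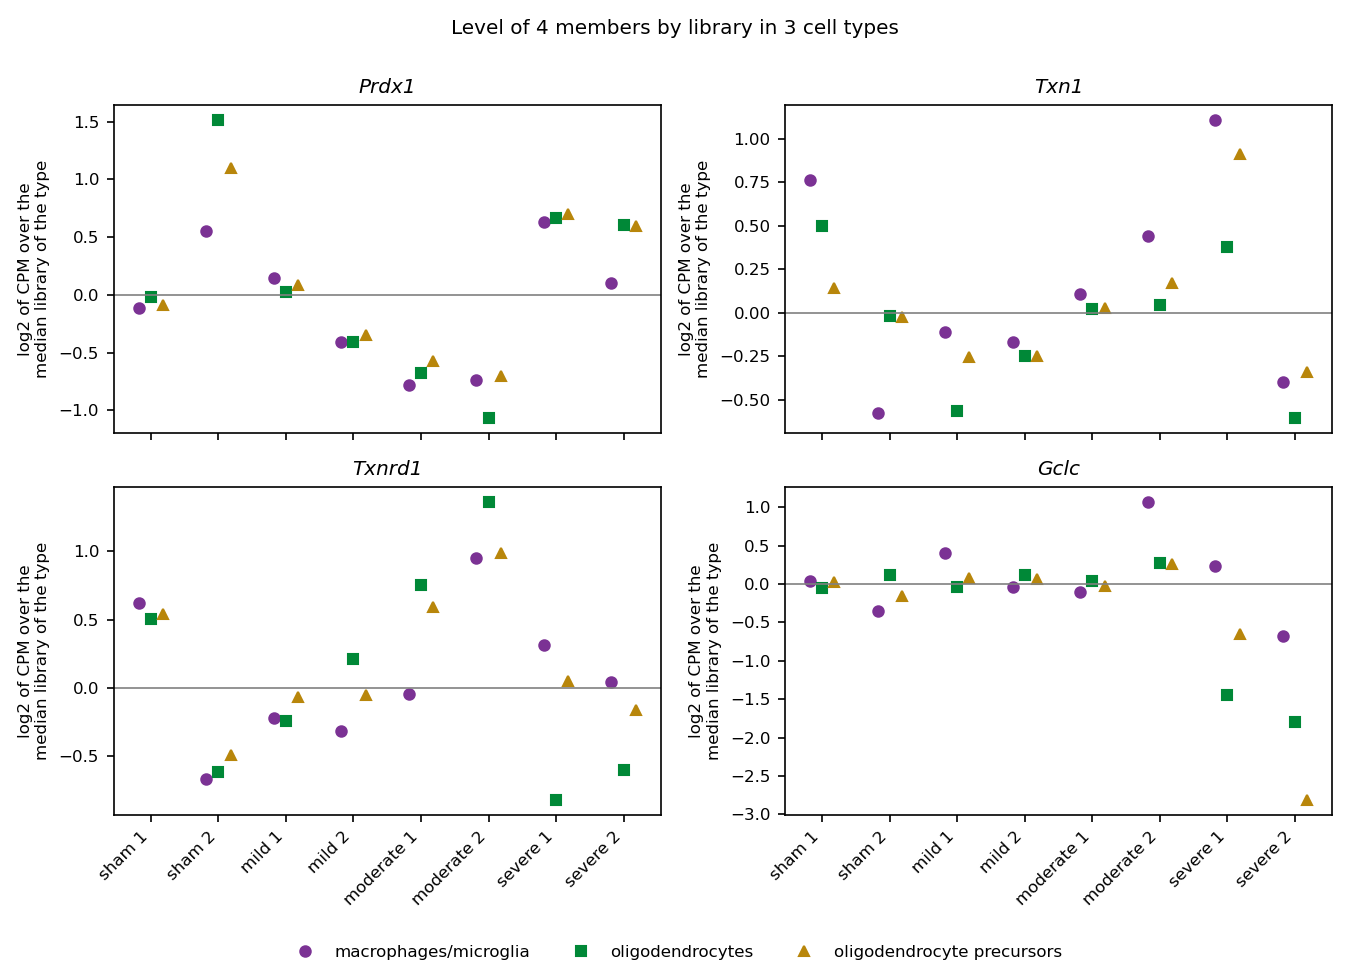
Level of Prdx1, Txn1, Txnrd1 and Gclc in 3 cell types by library, as the log2 of CPM over the median library of the type. For Prdx1 the points of the 3 types lie together in most libraries, low in moderate 1 and 2 and high in severe 1, and for Txnrd1 all 3 types are highest in moderate 2.

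The genes whose levels were most like those of a member were sought over the 45 sums of macrophage state by library, among 4566 genes with a mean of at least 20 CPM. These correlations of log2(CPM + 1) are descriptions across sums that share libraries. Prdx5 was most like Fn1 (Pearson's r = 0.93), which is a marker used to gate the monocyte-like state, followed by Mcemp1 (0.92) and Slpi (0.92). Slpi was one of the neutrophil markers kept out of the gate and was highest in neutrophils. Sod2 was most like the lipopolysaccharide co-receptor Cd14 (0.87), Nqo1 like Cd59 (0.85), Prdx1 like Cox7a2l2 (0.84) and Txnrd1 like the gene listed as NEWGENE_619861 (0.83). Txn1 was most like Myl12a (0.76), Gclc like Appbp2 (0.75), Gclm like Ndufab1 (0.73) and Slc7a11 like Plek (0.63). Between members, Prdx5 and Nqo1 were most alike (0.72), and Prdx1 and Txnrd1 least (-0.40).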

How the data were processed

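Single-cell RNA was measured in 8 spinal cord libraries, mapped to sham, mild, moderate and severe by their labels. The authors made the deposited UMI counts with Cell Ranger (5.0.1 per the file headers) against Rnor_6.0, as raw counts for 32623 genes without normalization. The study also used Seurat, whose cluster labels were not used here.

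The members and gene lists were chosen with earlier results of these data known, and the gate's scoring rule was settled after cell numbers, but not member levels, had been seen. Cells above 10% mitochondrial UMIs, the 7.7% of cells per library that Scrublet (scanpy 1.11.5) scored highest, and cells beyond 2 SD of the library mean in UMIs or genes were dropped. A marker counted in a cell where its value per 10000 UMIs reached 5% of its 99.9th percentile. A type or state needed at least 3 counted markers and a lead of 1 over the next, with 114 of 120 type markers and 52 of 56 state markers found. UMIs were summed per library and class of at least 20 cells, and CPM are these sums per 1000000 UMIs of the class. Genes passing filterByExpr were tested with the quasi-likelihood test of edgeR 4.0.16 (R 4.3.3) after TMM scaling and Benjamini-Hochberg adjustment, with all 4 groups in 1 fit, or with the library as a block for types and states. A value at 0 has a limit of 3 UMIs, and this limit covers counting error only.

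The members were tested in every comparison where they passed the low-count filter, and not every call is named in the text. Of each group of the wider list, up to 4 called genes per comparison were named, those with the largest mean CPM, and 1 gene of that list is counted but not reported here by name. Alternatives were DESeq2 1.42.0, scaling by library size, no filter, no doublet removal, a stricter gate with a lead of 2, the replicate number as a block, fits of only 2 groups, no library block, at least 100 cells, and each library left out. Deviations of same-numbered libraries from their group means correlated between -0.20 and 0.22, so the numbers were not taken as pairs. The steps were tested on simulated counts before use, in Python 3.11.15 (numpy 2.4.6, scipy 1.17.1, pandas 2.3.3) and R.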

Additional observations from a re-analysis of the deposited data

How the results depend on the processing

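Between cell types, the number of members called stayed within 1.5 times of the 59 under all alternatives run. Between states the 18 calls fell to 11 both with at least 100 cells per sum (27 tests) and with no library block, and left-out libraries gave 15 to 21. Without the library block Maff in lipid-laden cells turned to 0.31 and Ftl1 in monocyte-like cells to -0.25. Of the 77 calls between types or states, 56 were kept in all alternatives.

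For the injury groups in macrophages/microglia the 1 call became 3 with DESeq2, 0 with library size scaling, 6 with no filter, 0 with no doublet removal, 0 with the replicate block and 2 with only the 2 groups compared, and left-out libraries gave 0 to 10. In the other types and states the 1 call became 7 with DESeq2, 2 with library size scaling, 25 with no filter, 0 with the strict gate, 0 with the replicate block and 4 with only the 2 groups compared, and left-out libraries gave 0 to 25. The fit with only 2 groups gives no value for the injured mean. With no filter, members that the low-count filter had dropped were tested too. The counts in this section stand without the share of all genes called in the same setting, so they are no result about the members. Library size scaling turned the injured mean against sham to -0.015 for Txn1 and -0.088 for Nqo1. With 1 library left out, that contrast ran from -0.65 to 0.37 for Prdx1, from -0.13 to 0.86 for Txn1, from -0.060 to 0.88 for Txnrd1 and from -0.43 to 1.43 for Nqo1, with the end values reached without a sham library. The cause of these changes was not tested. The SE of the injured mean against sham in macrophages/microglia ran from 0.25 for Gclm to 0.72 for Prdx5 on the log2 scale. A left-out library can leave a group with 1 library, which is then assumed to vary like the other groups.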
